A study of Homo sapiens with 4 samples.

Results

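The miR-106b-25 and miR-106a-363 clusters are the paralogs of the miR-17-92 cluster, and their 7 guide strands, chosen by name, were followed in HepG2 cells given berberine. The guide strands are hsa-miR-106b, hsa-miR-93 and hsa-miR-25 of the first cluster and hsa-miR-106a, hsa-miR-18b, hsa-miR-20b and hsa-miR-363 of the second. Of the 851 human miRNAs on the array, 6 carried one of these names, 5 of them were detected on all 4 arrays, and hsa-miR-363 was detected on none. hsa-miR-106a was not analysed here.

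HepG2 is a human hepatocellular carcinoma line, and berberine is a plant isoquinoline alkaloid. Berberine chloride at 40 µM, diluted from a stock in DMSO, was set against 0.08% DMSO alone, and cells were harvested for total RNA at 2 h or 4 h. The 4 conditions had 1 Cy3-labelled Agilent array apiece, on 1 slide with 1 scan time. With 1 array per condition no difference between conditions has a replicate check, so each value below is set against the measurement error that the scanner software gave, which does not hold the spread between cultures. In bulk RNA of this kind, fewer cells making a miRNA and less of it per cell cannot be told apart.

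A miRNA guide strand directs Argonaute proteins to messenger RNAs that pair with its seed, bases 2 to 8 counted from the 5′ end, and these messages are then repressed. The 3 paralogous clusters arose by duplication of an ancestral cluster, and their guide strands are known as growth-promoting miRNAs that repress the cell cycle inhibitor CDKN1A and the apoptosis activator BCL2L11. The miR-106b-25 cluster lies within MCM7, which encodes a subunit of the replicative DNA helicase, and it is made together with that message in proliferating cells. Both clusters have been studied in liver cancer for this reason.

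The mature sequences show how the members group and how near they come to miR-17-92 strands. They are given 5′ to 3′ from RefSeq (GRCh38.p14), with the seed in capitals. All 7 names were matched there.
hsa-miR-106b: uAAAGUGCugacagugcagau
hsa-miR-93: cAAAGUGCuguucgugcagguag
hsa-miR-20b: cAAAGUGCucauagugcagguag
hsa-miR-106a: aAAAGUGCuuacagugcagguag
hsa-miR-18b: uAAGGUGCaucuagugcaguuag
hsa-miR-25: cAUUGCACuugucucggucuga
hsa-miR-363: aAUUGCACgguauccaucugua

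The first 4 strands share the seed AAAGUGC, hsa-miR-18b has AAGGUGC, and hsa-miR-25 and hsa-miR-363 share AUUGCAC. On the minus strand of chromosome 7, hsa-miR-106b lies at chr7:100094043-100094063, hsa-miR-93 at chr7:100093815-100093837 and hsa-miR-25 at chr7:100093571-100093592, a stretch of 493 bases inside the interval of the protein-coding gene MCM7. On the minus strand of chromosome X, hsa-miR-106a lies at chrX:134170244-134170266, hsa-miR-18b at chrX:134170084-134170106, hsa-miR-20b at chrX:134169850-134169872 and hsa-miR-363 at chrX:134169382-134169403. These 4 span 885 bases inside the long noncoding RNA gene MIR106AHG. That cluster also holds copies of miR-19b and miR-92a whose mature strand equals that of the copies in miR-17-92, so an array cannot assign those strands to a cluster.

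Some members differ from a miR-17-92 strand by few bases. The closest strands of miR-17-92 are shown for that reason, with the seed again in capitals.
hsa-miR-17: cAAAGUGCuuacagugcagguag
hsa-miR-18a: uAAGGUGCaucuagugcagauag
hsa-miR-20a: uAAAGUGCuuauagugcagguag
hsa-miR-92a: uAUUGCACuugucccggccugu

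With positions counted from 1 at the 5′ end and the member's base given first, hsa-miR-106a differed from hsa-miR-17 by A1C alone, an identity of 95.7%. hsa-miR-18b differed from hsa-miR-18a by U20A alone, and hsa-miR-20b differed from hsa-miR-20a by C1U and C10U, an identity of 91.3%. It was as close to hsa-miR-17, with C10U and U12C. hsa-miR-93 differed from hsa-miR-17 and from hsa-miR-20a at 4 positions each (82.6% identity). hsa-miR-25 differed from hsa-miR-92a at 4 positions (81.8% identity). Whether a probe for one strand also captured a similar strand was not tested, and the levels of hsa-miR-18b and hsa-miR-20b are uncertain to that extent. The same holds, at lower identity, for hsa-miR-93 and hsa-miR-25. Only strands of equal length were compared, so hsa-miR-106b, with 21 bases, has no identity value here. Its level is uncertain in the same way.

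The arrays themselves differed in brightness, and the members moved with it. Over the 197 human miRNAs that every array detected, the 75th percentile of the total signal was 243 in the 2 h control, 169 in the 2 h berberine array, 225 in the 4 h control and 297 in the 4 h berberine array. The number of human miRNAs detected followed the same order at each time, with 235 and 199 at 2 h and 226 and 242 at 4 h for control and berberine. Before scaling, the 5 detected members had a median log2 ratio of berberine over control of -0.55 at 2 h and 0.52 at 4 h, beside -0.55 and 0.51 over all miRNAs with a ratio. Ratios were therefore taken after each array had been divided by its own 75th percentile, and the scaled level is given as a percentage of that percentile. Since probes differ in how well they bind, levels were compared only within a miRNA across arrays.

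The miRNAs looked up for the labelled lineage were detected. hsa-miR-122, the main hepatocyte miRNA, and the hepatic and intestinal hsa-miR-192, hsa-miR-194 and hsa-miR-215 were detected on all 4 arrays. hsa-miR-122 had a total signal of 31.5, 22.4, 30.1 and 39.9 in the 2 h control, 2 h berberine, 4 h control and 4 h berberine arrays. That was 12.9%, 13.2%, 13.3% and 13.4% of the 75th percentile. None of 3 muscle and 2 neural miRNAs was detected on any array. Of 4 blood cell miRNAs, 2 were detected on the 4 h berberine array alone, hsa-miR-142-3p at 6.13 and hsa-miR-451 at 5.31, with hsa-miR-223 and hsa-miR-150 undetected on all arrays. The part of these in the members' values was not tested.

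None of the 5 detected members passed the 2-fold threshold of the study at either time, in either direction. At 2 h the threshold was passed by 1.02% of the 197 miRNAs with a ratio, and at 4 h by 0.917% of 218. No member lay further than 1.96 errors, the 95% range, from no change at 2 h or 4 h, where 9.14% and 11.5% of all miRNAs did. The 95% range of each member's ratio, counting measurement error only, ran at its widest from 0.766-fold to 1.32-fold at 2 h and from 0.798-fold to 1.45-fold at 4 h. A change of 1.5-fold lay outside these ranges for each of the 5, and the measured ratio passed 1.5-fold in 0 members, beside 4.57% of all miRNAs at 2 h and 9.63% at 4 h. That limit holds for the processing used here. With the mean of the spots or with normexp background correction, hsa-miR-20b had a log2 ratio of 0.38 at 4 h. No error was computed for these alternatives. With the SE of 0.18 from the main processing, a higher level of 1.5-fold lay within 1.96 errors of that ratio.

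hsa-miR-106b, which gives its cluster its name and represses CDKN1A, had a total signal of 798 ± 59.4 (software error) in the 2 h control and 522 ± 38.8 in the 2 h berberine array. At 4 h it was 673 ± 50.0 in the control and 1051 ± 77.7 with berberine. After scaling these became 328%, 309%, 299% and 354% of the 75th percentile, lowest in the 4 h control and highest in the 4 h berberine array. The log2 ratio, -0.61 at 2 h and 0.64 at 4 h before scaling, was -0.09 (SE 0.15) and 0.24 (SE 0.15) after it, the latter the largest of the members with this processing and 1.18-fold, with a 95% range from -0.05 to 0.54. It ranked 49 of 218 miRNAs at 4 h. With the mean of the spots and with normexp, hsa-miR-20b was the largest at 4 h instead, at 0.38 in both. hsa-miR-106b then stood at 0.09 and 0.13.

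hsa-miR-93, which shares that seed, gave 536 ± 45.8 (control) and 389 ± 33.0 (berberine) at 2 h and 471 ± 39.9 and 626 ± 52.6 at 4 h. The scaled levels of 220.4%, 230.2%, 209% and 211%, in the order 2 h control, 2 h berberine, 4 h control and 4 h berberine, were the flattest at 4 h among the members. The log2 ratio was 0.06 (SE 0.17) at 2 h and 0.01 (SE 0.17) at 4 h. It ranked 56 of 197 miRNAs at 2 h and 149 of 218 at 4 h, above and below the median of all, and both directions turned with normexp background correction.

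hsa-miR-25, whose seed is that of the miR-92 family and which represses BCL2L11, gave 529.9 ± 40.1 and 361 ± 27.2 at 2 h and 459 ± 34.5 and 659.8 ± 49.3 at 4 h, control before berberine. Scaled, it stood at 218%, 213%, 204% and 222%. Its log2 ratio was -0.03 (SE 0.15) at 2 h and 0.13 (SE 0.15) at 4 h. The 3 strands lie in 1 host gene, and their ratios spanned 0.15 on the log2 scale at 2 h and 0.23 at 4 h. The widest pair, hsa-miR-106b minus hsa-miR-93, differed by -0.15 at 2 h (95% range -0.60 to 0.30) and by 0.23 at 4 h (-0.22 to 0.68), both within 1.96 errors of zero.

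**Figure D1:**
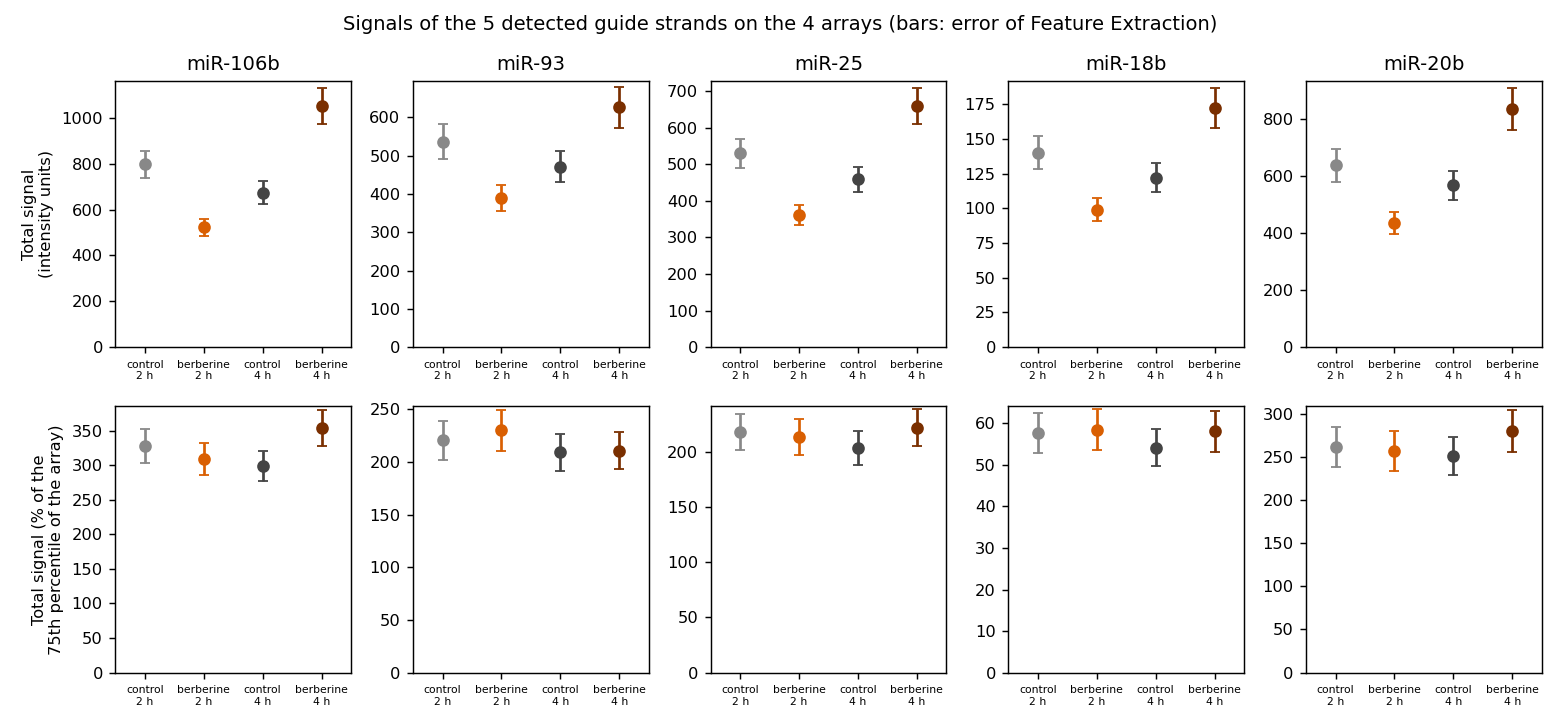
Total signal in intensity units (upper row) and as a percentage of the 75th percentile of the array (lower row) for the 5 detected guide strands in the 4 conditions, 1 array each, with bars for the error of Feature Extraction. In the upper row every strand is lowest on the 2 h berberine array and highest on the 4 h berberine array, and in the lower row the error bars of the arrays overlap, except those of miR-106b at 299% in the 4 h control and 354% in the 4 h berberine array.

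Of the chromosome X cluster, hsa-miR-18b and hsa-miR-20b were measurable. hsa-miR-18b, the paralog of hsa-miR-18a, gave 140.2 ± 11.7 (control) and 98.9 ± 8.31 (berberine) at 2 h and 122 ± 10.2 and 173 ± 14.4 at 4 h. The scaled levels of 57.6%, 58.5%, 54.2% and 58.1% were close together. The log2 ratio was 0.02 (SE 0.17) at 2 h and 0.10 (SE 0.17) at 4 h.

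hsa-miR-20b, a strand known to target HIF1A and VEGFA, gave 636 ± 56.9 and 434 ± 38.6 at 2 h and 567 ± 50.4 and 833 ± 73.6 at 4 h, control before berberine. Its scaled levels were 261%, 257%, 251% and 280.2%, the highest with berberine at 4 h. The log2 ratio was -0.03 (SE 0.18) at 2 h and 0.16 (SE 0.18) at 4 h, the latter 1.11-fold with a 95% range from -0.20 to 0.51. That 4 h ratio depended on the processing. It was 0.38 with the mean of the spots or with normexp, and -0.02 with scaling to the median or with quantile normalization.

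hsa-miR-363, the last strand of that cluster and the partner in seed of hsa-miR-25, was below its detection limit on every array. A probe counted as detected where its signal passed 3 times its own error. The higher of its 2 probe signals was 0.280, 0.338, 0.402 and 0.284 on the 2 h control, 2 h berberine, 4 h control and 4 h berberine arrays, against limits of 3.37, 4.75, 4.45 and 3.57. No ratio was formed, and a level under those limits would not have been seen.

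**Figure D2:**
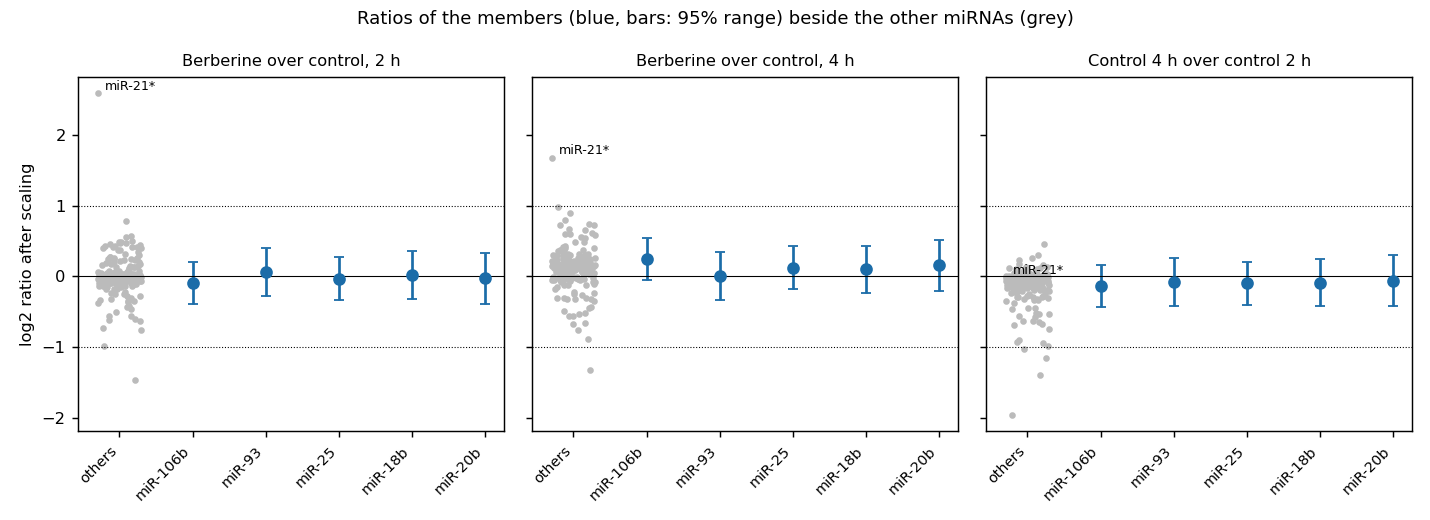
The log2 ratio after scaling of the 5 detected members (blue, bars the 95% range) beside every other human miRNA detected on all 4 arrays (grey) for berberine over control at 2 h and 4 h and for the 4 h over the 2 h control, with dotted lines at 2-fold. All member bars cross zero and stay inside the dotted lines, while hsa-miR-21* stands at 2.59 and 1.68 in the berberine panels.

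As a group the members stayed near the median of the array, at a distance of -0.01 at 2 h and 0.02 at 4 h, but with normexp background correction that distance was -0.29 and 0.32, and with the mean of the spots it was -0.05 and 0.12. With the scaling used throughout, their median log2 ratio was -0.03 at 2 h beside -0.02 over all miRNAs, and 0.13 at 4 h beside 0.11. The SD over the members was 0.06 at 2 h and 0.08 at 4 h, and over the 6 miR-17-92 strands it was 0.05 and 0.06. The 49 other miRNAs whose total signal stayed within the members' range on every array, from 98.9 to 1051, had an SD of 0.12 at both times and medians of -0.02 and 0.11. At 2 h, 2 members were above zero and 3 below, where 42.1% of all miRNAs were above. Those above zero at 2 h numbered 0 without scaling and 5 with the 75th percentile of the whole human set. They numbered 1 with the brightest probe or quantile normalization. At 4 h all 5 were above zero, as were 69.7% of all miRNAs, a count of members that fell to 1 when arrays were scaled to their median and to 0 with the 75th percentile of the whole human set. Members above zero numbered 3 with quantile normalization, 4 with the brightest probe alone and 2 with the mean of the spots or with normexp. All 5 were above zero in 4 of the 10 alternatives. Of these 4, 1 left out the scaling. The others, the same probes summed on all arrays and the filters for detection or signal, left the members' ratios the same or nearly so.

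The 2 control arrays gave the background for these values without berberine, although time and array cannot be told apart in it. Between them the log2 ratio of 4 h over 2 h was -0.14 for hsa-miR-106b (SE 0.15), -0.08 for hsa-miR-93, -0.10 for hsa-miR-25, -0.09 for hsa-miR-18b and -0.06 for hsa-miR-20b, with a median of -0.09 beside -0.08 over all miRNAs, a direction that turned for all 5 with scaling to the median or to the 75th percentile of the whole human set, for 4 with the brightest probe or normexp and for 3 with the mean of the spots. None passed 2-fold, where 2.28% of 219 miRNAs did, 1.83% on the lower side, and none lay outside the 95% range of no change, where 6.85% did. The berberine ratios of the members had their extremes at -0.09 and 0.06 for 2 h, and 0.01 and 0.24 for 4 h. The 2 times share no array, but the control comparison shares 1 array with each of them.

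Ordered by scaled level, all 5 members were lowest on the 4 h control array, as were 48.2% of all 197 miRNAs, but with arrays scaled to their median 0 members were lowest there and 3 on the 2 h berberine array, as were 47.7% of all. hsa-miR-106b, hsa-miR-25 and hsa-miR-20b were highest with berberine at 4 h and hsa-miR-93 and hsa-miR-18b with berberine at 2 h, the highest arrays of 45.7% and 32.5% of all miRNAs, but with scaling to the median 4 members were highest on the 4 h control array, as were 42.6% of all. The distance from the highest to the lowest array was 0.24 on the log2 scale for hsa-miR-106b, 0.16 for hsa-miR-20b, 0.14 for hsa-miR-93, 0.13 for hsa-miR-25 and 0.11 for hsa-miR-18b. No neighbours in any of these orders, nor the highest and the lowest array, differed beyond 1.96 errors.

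**Figure D3:**
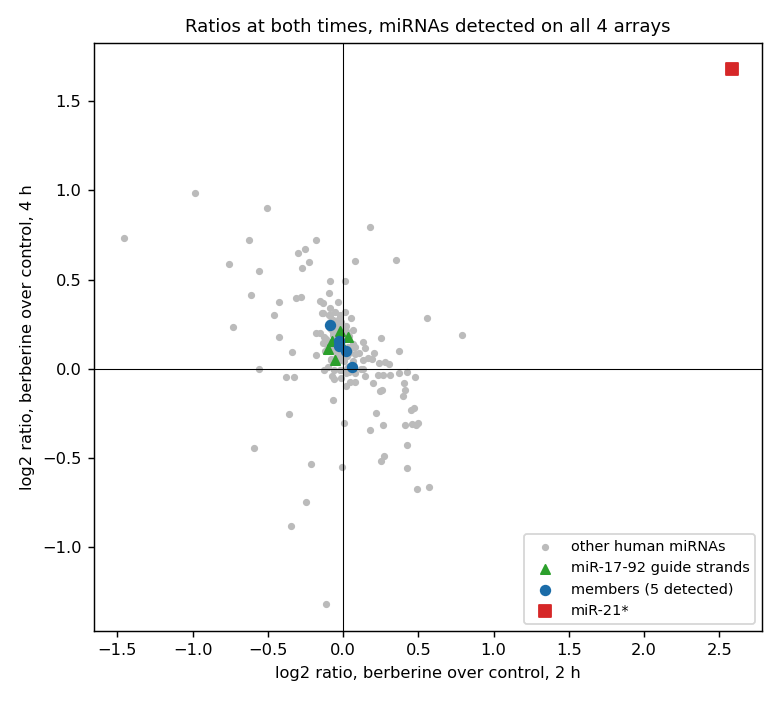
The log2 ratio of berberine over control at 2 h (x axis) against that at 4 h (y axis) for the 197 human miRNAs detected on all 4 arrays, with the 5 members in blue, the 6 miR-17-92 guide strands in green and hsa-miR-21* in red. Members and miR-17-92 strands lie in the same dense patch near the origin, between -0.10 and 0.06 at 2 h, far from hsa-miR-21* at 2.59 and 1.68.

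A single fit over both times, limma with treatment and time point and the spread shared across miRNAs, tested the 197 miRNAs. No member was called. The fitted log2 differences, berberine minus control, were 0.08 for hsa-miR-106b, 0.07 for hsa-miR-20b, 0.06 for hsa-miR-18b, 0.05 for hsa-miR-25 and 0.04 for hsa-miR-93, each with an SE of 0.21 and a Benjamini-Hochberg adjusted p of 0.997. The fit called 0.508% of all miRNAs at an adjusted p under 0.05 and 4.57% at an unadjusted p under 0.05, and 0 members by either. It had 1 residual degree of freedom, the 2 times standing in for replicates.

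The strands of miR-17-92 also stayed within 1.96 errors of no change with berberine. All 6 were detected on every array and 0 passed 2-fold, with log2 ratios from -0.10 for hsa-miR-19b to 0.03 for hsa-miR-92a at 2 h and from 0.05 for hsa-miR-18a to 0.21 for hsa-miR-17 at 4 h. Between the control arrays hsa-miR-17 alone of the 6 lay beyond its 95% range, at -0.27 (SE 0.14). hsa-miR-18b minus its near-identical partner hsa-miR-18a was 0.07 at 2 h (95% range -0.38 to 0.52) and 0.05 at 4 h (-0.40 to 0.50). hsa-miR-20b minus hsa-miR-20a was -0.01 (-0.47 to 0.45) and 0.00 (-0.46 to 0.46), and hsa-miR-25 minus hsa-miR-92a was -0.06 (-0.49 to 0.37) and -0.05 (-0.48 to 0.38). No pair differed beyond its error, and with ranges of this width a small difference within a pair would not have been seen.

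Beyond the 3 clusters, 5 more human miRNAs of the array carry a member's seed. hsa-miR-32, an intronic miRNA with the seed of hsa-miR-25, was detected on every array and had log2 ratios of -0.01 at 2 h and 0.15 at 4 h. hsa-miR-519d and hsa-miR-526b* of the primate placental cluster, hsa-miR-92b, and hsa-miR-367 of the embryonic stem cell cluster miR-302-367 were detected on none. The strands with a member's seed that could be measured thus came from the 3 clusters and hsa-miR-32.

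The passenger strands, the arms of the hairpins that are mostly degraded, were near or under their limits. All 7 were listed, and 1 of 28 values counted as detected. It was that of hsa-miR-106b* with berberine at 4 h, at 1.98 against a limit of 1.88, while the other arrays gave 1.61, 1.08 and 1.43 against limits of 1.75, 2.39 and 2.26 in the 2 h control, 2 h berberine and 4 h control. The 4 h berberine array was also the brightest, and no ratio was formed. By contrast the passenger strand hsa-miR-21*, the responder of the study, had log2 ratios of 2.59 (SE 0.18) at 2 h and 1.68 (SE 0.20) at 4 h, with its guide strand hsa-miR-21 at -0.02 and 0.24.

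Each detected member was read by 2 detected probes, whose ratios lay close together. Across the 15 pairs of probe ratios, over 5 members and 3 comparisons, the median distance between the 2 probes was 0.07 on the log2 scale and the largest 0.10, with 0 beyond 1.96 errors. The 2 probes had the same sign in 10 of the 15 pairs. The spots of a probe varied with a median coefficient of variation of 3.93%, below the software error of 10.0% per probe. By spots, the control and berberine arrays did not overlap for 1 of the 10 probes at 2 h and for 4 at 4 h, beside 16.8% and 32.5% of all 351 human probes detected on every array. The 4 probes at 4 h were both of hsa-miR-20b and 1 each of hsa-miR-106b and hsa-miR-25, all higher with berberine, as were 27.1% of all probes. Between the 2 control arrays 2 of the 10 did not overlap, beside 15.7%. With so few probes, these counts are close to those of the whole array. Spots of 1 array measure the same RNA and are no replicates of the condition. One more probe of hsa-miR-18b stayed undetected on every array, at 0.904 to 1.76, and is not in its total.

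**Figure D4:**
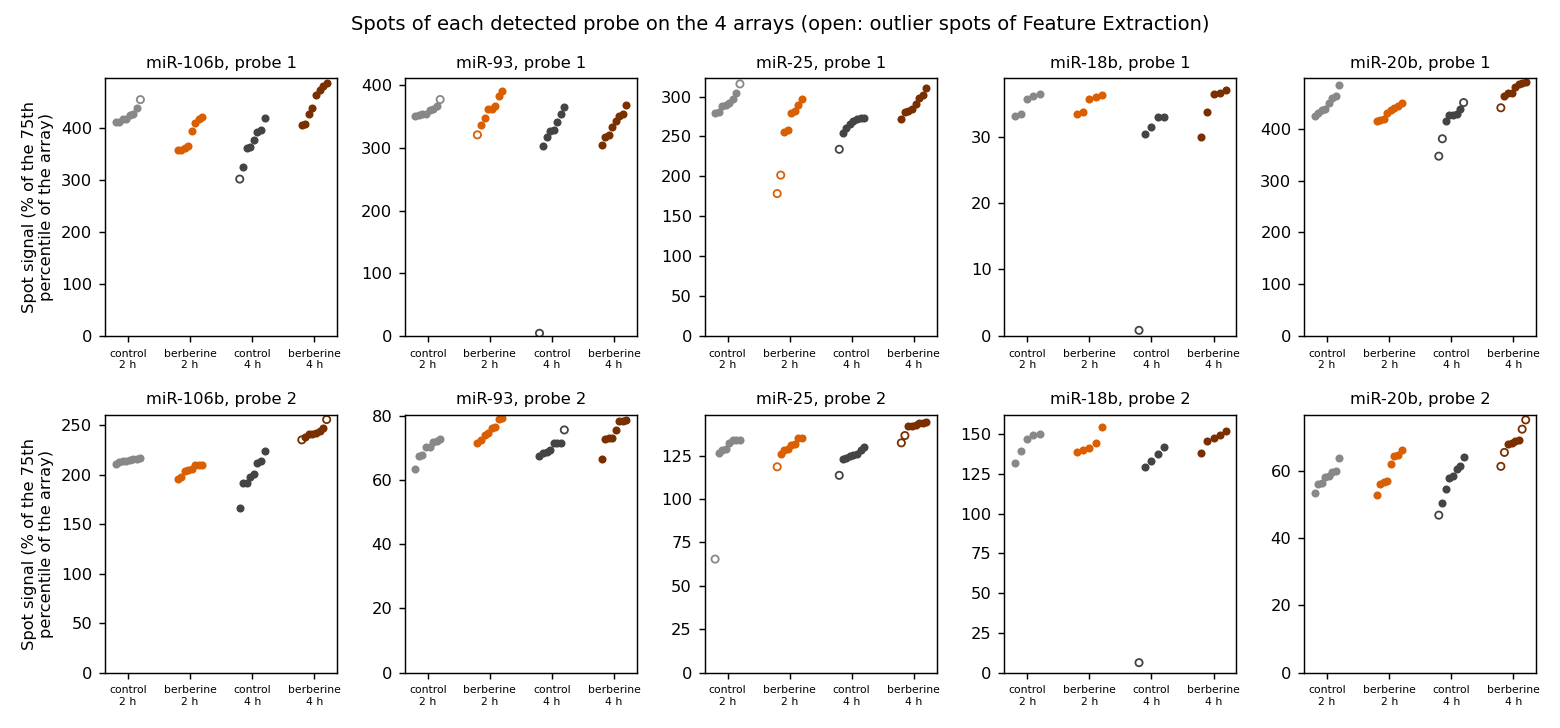
Signal of each spot, as a percentage of the 75th percentile of its array, for the 2 detected probes of each of the 5 members on the 4 arrays, with spots ordered by value within an array and open circles for spots that Feature Extraction marked as outliers. Spots of the control and berberine arrays overlap for 9 of 10 probes at 2 h and for 6 of 10 at 4 h, outliers left out, while 16.8% and 32.5% of all probes had no overlap.

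By pattern over the 4 arrays, the miRNAs nearest to the mean of the 5 members were hsa-miR-455-3p, hsa-miR-20a and hsa-miR-331-3p, at Euclidean distances of 0.03 each on the centred log2 scale among 192 compared. The members themselves lay between 0.01 and 0.13 from their mean, and the median distance of the others was 0.19. With 4 arrays and differences of the members within 1.96 errors, this order is a description of these arrays only.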

How the data were processed

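The authors deposited the Feature Extraction 10.7.3.1 output of each array, with a background-subtracted intensity per spot, probe and miRNA that is not scaled between arrays. The array's annotation names hg18. The total intensity of a miRNA sums its probes whose signal passes 3 errors, and 0.1 is written where none does. A second deposited table holds the authors' ratios of berberine over control and was not used.

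Each log2 total intensity was taken relative to the 75th percentile of its array, computed from the 197 human miRNAs that every array detected. Ratios were formed where both arrays detected the miRNA, with errors propagated from the software's. The fit used limma 3.58.1 in R 4.3.3, tested on simulated data. Alternatives changed the scaling, the probe summary, the background correction (normexp, offset 50, on the median spot signal, the one the files give), the filter, the 2-fold threshold and the fit. No spot was saturated among 15739 features per array, and the lowest detected total signal was 1.79, 2.52, 2.34 and 1.98. The precision is limited by 1 array per condition.

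By rule, the miRNAs to be described were all members, their passenger strands, miR-17-92 guide strands, miRNAs of the same seed, the 3 nearest patterns, hsa-miR-21* and hsa-miR-21, with hepatic, blood, muscle and neural markers, and some of them are given by counts only. Members and lists were chosen with earlier results of these data known. Sequences, positions and neighbouring genes are from RefSeq on GRCh38.p14, while probe sequences were not used.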

Additional observations from a re-analysis of the deposited data

Results flagged for a closer look

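For 3 members the berberine ratio was below zero at 2 h and above it at 4 h, as for 48.7% of the 197 miRNAs detected on all arrays. With scaling to the median this held for hsa-miR-106b alone, and for 27.9% of all. On the log2 scale the 4 h ratio minus the 2 h ratio was 0.33 for hsa-miR-106b (measurement SE 0.21), 0.18 for hsa-miR-20b (SE 0.26) and 0.15 for hsa-miR-25 (SE 0.22). With 1 array per condition the difference was not tested between samples, and each value lay within 1.96 errors of zero. Over the 197 miRNAs the same difference had a median of 0.14, with 95% of them between -0.86 and 1.13, and the 3 members stood at percentiles 80.2, 57.4 and 52.8.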

How the results depend on the processing

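Without scaling the members' median log2 ratio was -0.55 at 2 h and 0.52 at 4 h, as the arrays differed in brightness. Scaled to the 75th percentile of the whole human set it was 5.08 at 2 h, -0.28 at 4 h and 0.41 between the controls, and 5 members passed 2-fold at 2 h, hsa-miR-106b, hsa-miR-25 and hsa-miR-20b with the sign turned, because 199 of 851 miRNAs were detected on the 2 h berberine array and the percentile fell on the 0.1 written for undetected ones. The median over all miRNAs was then 5.09, -0.30 and 0.42, and the members' distance from it was -0.01, 0.02 and -0.01 as before. A change of the scaling value moves every ratio of a comparison equally, so this distance was fixed and is no sign of stability. Over 10 alternatives, changes of the scaling value included, that distance had extremes of -0.29 and 0 for 2 h and of 0.01 and 0.32 for 4 h. The values of -0.29 and 0.32 were those of normexp, and the cause was not tested. Of 150 values of single members, 125 stayed within 1.96 errors of the value reported and 25 moved further. The moved ones came only from leaving out the scaling or from the 75th percentile of the whole human set. Some of the 125 could not move, as the filters for detection and for signal leave a member's own values unchanged. Summing the same probes on all arrays also left them nearly unchanged. At 1.5-fold 0 members passed at either time. limma called 0 members under its 16 alternatives, leaving out each array included (0 to 0, without the time point, the lone array of a condition assumed to vary like the rest), with adjusted p from 0.444 to 1, but 12 of the 16 called no miRNA at all, so the count says little about stability. The time point in limma pairs the arrays of a time, and without it 0 members were called. Beyond that, no paired analysis was possible because each group has the replicate number 1 alone. The lowest detected total signals, 1.79 to 2.52, mark the limit of the arrays, and hsa-miR-363 and all but 1 passenger value lay under theirs.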
